A study of Mus musculus with 4 samples.

Results

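The nuclear genes of the mitochondrial respiratory chain and ATP synthase are described here in cerebral cortex of adult mice. Members were all probe sets whose symbol in the authors' deposited table begins with Nduf, Uqcr, Cox4, Cox5, Cox6, Cox7, Cox8 or Atp5, or is Sdha, Sdhb, Sdhc, Sdhd, Cyc1 or Cycs. The rule found 186 of the 45101 probe sets, which name 90 of 20802 genes. Each gene was represented by its probe set with the highest mean over the 4 arrays. By complex there were 36 genes of complex I, 4 of complex II, 9 of complex III, 18 of complex IV, 14 of complex V (the ATP synthase) and Cycs, which encodes cytochrome c. Another 8 genes share a prefix without being subunits: the complex I assembly factors Ndufaf1, Ndufaf2, Ndufaf3 and Ndufaf4, the supercomplex factor Cox7a2l, Atp5s, Atp5sl and Cox4nb. RefSeq now names Atp5s, Atp5sl and Cox4nb Dmac2l, Dmac2 and Emc8. Ndufa4 and its paralogue Ndufa4l2 were counted with complex IV, where the Ndufa4 protein is found.

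The respiratory chain passes electrons from NADH (complex I) and succinate (complex II) through complex III and cytochrome c to oxygen at complex IV, and the ATP synthase uses the resulting proton gradient to make ATP. Neurons depend on this pathway to power ion pumping and synaptic transmission. Some complex IV and complex V subunits come as isoforms from separate genes, a few of which are typical of striated muscle or testis.

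All animals were female C57BL/6J mice, an inbred laboratory strain, aged 90 days. Their dams were given a nicotine or a saccharin solution from conception, and the offspring were taken off it at 21 days of age. Whether the nicotine solution also held saccharin is not given in the sources used here. RNA of 4 animals was pooled, with 5 pools per group named in the labels, and biotin-labelled RNA was hybridised to Affymetrix arrays. The groups are 2 arrays titled nicotine and 2 arrays titled saccharin, each numbered 1 and 2. Title and source name contradict each other on all 4 arrays. Groups follow the titles here, each difference below is titled nicotine minus titled saccharin, and all signs turn if the source names hold. It is not stated which pools were hybridised, so the p-values cover only array-to-array spread, possibly technical. Values are log2 expression per probe set. Array medians were between 3.88 and 4.09, and the median over all probe sets of their mean level was 4.04. Of 7 neuronal markers (Snap25, Syt1, Rbfox3, Tubb3, Slc17a7, Camk2a and Gad1), all 7 were at or above that median level, and neither of the 2 measured red blood cell markers was. Arrays resembled each other by number more than by title. Across the 90 genes the difference between numbers in titled nicotine correlated with that in titled saccharin at r = 0.861, while the difference between titles in number 2 correlated with that in number 1 at r = 0.0956. These are descriptions over genes that share the arrays.

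Most members gave a strong signal. Of the 90 genes, 83 were at or above the median level and 72 had a mean of 12 or more, against 8.32% of all genes. A level also reflects how well its probes bind, so levels of different genes are not compared. The 7 genes below the median level were Ndufb4 and the isoform genes Cox4i2, Cox6b2, Cox7b2, Cox8b, Cox8c and Ndufa4l2. The only Ndufb4 probe set read 2.96 on titled nicotine 1, titled nicotine 2 and titled saccharin 1 and 2.65 on titled saccharin 2, near the lowest value of 2.1, so it gives no usable level for this accessory subunit of complex I.

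Between the titles the respiratory chain genes stood almost level. The median difference over the 90 genes was 0.0020, against 0 over all 20802 genes. On the deposited scale the difference was below 0.1 in size in 77 of the 90 genes (85.6%). This compares with 69.4% of all genes and 78.9% of the other genes with a mean of 12 or more. No member passed limma's moderated test (0 at an adjusted p under 0.05 and 0 at an unadjusted p under 0.05). Over all probe sets 0.00222% were called and 347 had an unadjusted p under 0.05. The authors' deposited table also had an adjusted p of 1 for all 90, while 0.031% of its probe sets had one under 0.05. The 95% interval of the limma difference lay within 1 on either side of 0, a 2-fold difference, in 72 of the 83 genes at or above the median level, and within 0.5 in 47. Its median half-width was 0.41. For the remaining genes this fit could not show a difference of that size or its absence. It leaves the difference between the array numbers in the spread. With the number as a block, the interval lay within 1 in 78 of the 83 genes and within 0.5 in 65 (median half-width 0.27). The labels do not explain the numbers. In bulk tissue, a lower level per cell and fewer cells of a type cannot be told apart. Some cell type markers differed with the title, though none passed limma. Of 5 oligodendrocyte markers, 4 (Mbp, Mobp and Mog among them) were higher on both arrays titled nicotine, with a mean over the 5 of 13.43 and 13.49 in titled nicotine, against 13.36 and 13.25 in titled saccharin. The choroid plexus marker Ttr read 12.01 and 13.96 in titled nicotine, against 11.84 and 10.75 in titled saccharin. The 7 neuronal markers gave a median difference of 0.038 with no gene apart. The part of these markers in the differences of the members was not tested.

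By complex, the median difference was -0.010 for complex I, 0.011 for complex II, -0.017 for complex III, 0.037 for complex IV, 0.014 for complex V and 0.030 for the factors. All were smaller than 0.05 in size. Centring each array on its median adds 0.054 to every difference, which turns the sign of the medians of complexes I and III to positive. In 22 genes the array titled nicotine was the higher in both numbers and in 23 the lower, against 11.7% and 19.3% of all genes, many of which sit at the lowest value. Among genes with a mean of 12 or more the counts were 17 and 21 of 72 (23.6% and 29.2%), against 17.5% and 31.3% of the other genes at that level. This balance belongs to the deposited scale, since centring adds 0.0033 within number 1 and 0.104 within number 2. On centred arrays 43 of the 90 members were higher in both numbers and 1 was lower, against 52.1% and 11.8% of all genes. At a mean of 12 or more it was 32 and 1 of 72 members (44.4% and 1.39%), against 30.8% and 13.3% of the other genes.

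**Figure D1:**
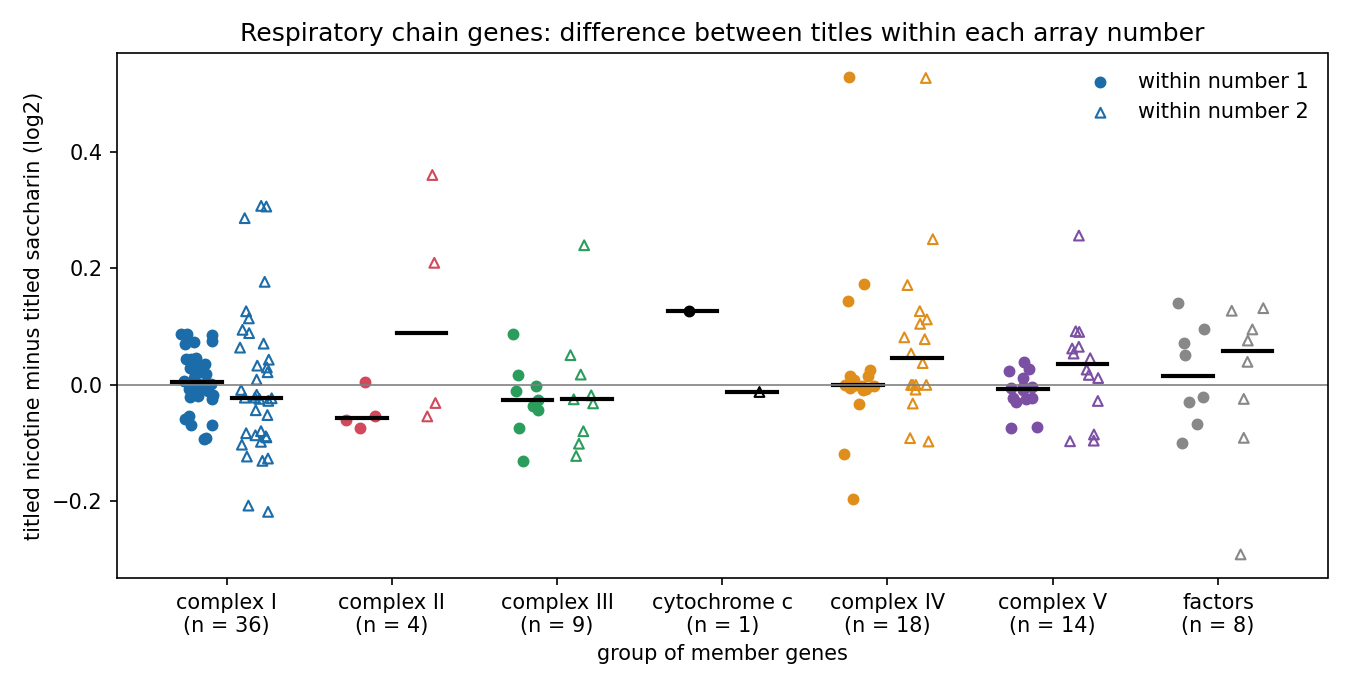
Difference between titled nicotine and titled saccharin (log2, vertical axis) for every member gene, by complex (horizontal axis), with filled circles for the pair of arrays numbered 1, open triangles for the pair numbered 2 and black bars for the medians. The number 1 points lie close to 0 and the number 2 points are spread more widely, with median sizes of 0.079 in number 2 and 0.027 in number 1.

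The pair numbered 2 differed more than the pair numbered 1. The median size of the difference over the members was 0.079 within number 2 and 0.027 within number 1, a ratio of 2.93. Over the other genes with a mean of 12 or more these sizes were 0.089 and 0.048, a ratio of 1.83, and over the 12234 genes reaching the median level 0.14 and 0.088, a ratio of 1.54.

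In 4 genes at or above the median level both arrays titled nicotine read above both titled saccharin, and in 2 both read below (4.82% and 2.41% of the 83 genes). All genes at that level gave 2.71% and 7.2%, so neither share is a result about the respiratory chain. Ndufaf1, Cox7a1 and Atp5c1 were among the higher ones, and the lower ones were Sdha and Atp5h. These calls depend on the scale. With each array centred on its median, 2 of the 4 higher genes remained, Cox7a1 among them, Ndufaf1 and Atp5c1 overlapped, and Ndufa8 and Cox7c were apart instead. None was lower then, with Sdha at 0.00039 and Atp5h at -0.0054.

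**Figure D2:**
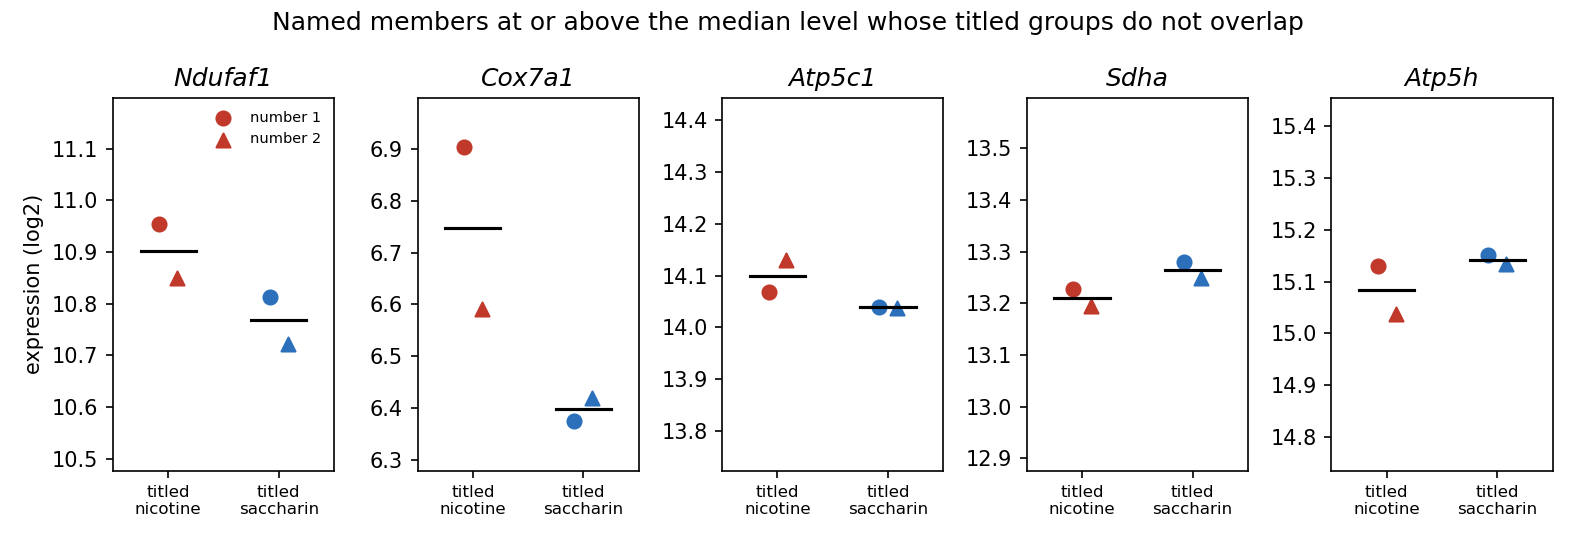
Expression (log2, vertical axis) on each of the 4 arrays for 5 members at or above the median level whose groups do not overlap on the deposited scale, with titled nicotine on the left, titled saccharin on the right, circles for number 1, triangles for number 2 and bars for the mean of 2 arrays. All panels span the same range of log2 units, and Cox7a1 has the widest gap, 0.35.

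Complex I transfers electrons from NADH to ubiquinone. Of its catalytic core, Ndufs1, the large iron-sulfur subunit, differed by -0.015 (SE 0.108) and Ndufv1, which binds NADH, by -0.057 (SE 0.0804). Neither passed limma (adjusted p = 1 for both). Over the 29 accessory genes differences ran from -0.11 to 0.17.

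The accessory genes at those ends were Ndufb7 and Ndufab1. Ndufb7 read 12.72 and 12.58 on titled nicotine 1 and 2, against 12.71 and 12.80 on titled saccharin 1 and 2, a difference of -0.11 (SE 0.0741) that came from the arrays numbered 2. Ndufab1, the mitochondrial acyl carrier protein, read 14.10 and 13.88 on titled nicotine 1 and 2, against 14.06 and 13.59 on titled saccharin 1 and 2, a difference of 0.17 (SE 0.241). Ndufa5 differed by -0.098 (SE 0.0720). In limma the adjusted p was 1 for these 3 genes.

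Complex II is the succinate dehydrogenase. Sdha, its flavoprotein, read 13.23 and 13.19 on titled nicotine 1 and 2, against 13.28 and 13.25 on titled saccharin 1 and 2. The difference was -0.053 within number 1 and -0.054 within number 2, and -0.053 pooled (SE 0.0209, 95% interval from -0.13 to 0.026, limma adjusted p = 1). On centred arrays Sdha was at -0.049 within number 1 and 0.050 within number 2. A second bright probe set of Sdha, at a mean of 12.65, gave 0.034 as deposited, so the probe sets of this gene had opposite signs. The iron-sulfur subunit Sdhb differed by -0.053 (SE 0.155), the membrane anchor Sdhd by 0.075 (SE 0.104) and the other anchor, Sdhc, by 0.18 (SE 0.782).

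In complex III, which passes electrons on to cytochrome c, no gene was higher in titled nicotine in both numbers and 4 of 9 were lower in both, Uqcr10, Uqcr11, Uqcrh and Uqcrq. The differences were small: -0.053 for Uqcr10 (SE 0.0938), -0.062 for Uqcr11 (SE 0.328), -0.017 for Uqcrh (SE 0.0316) and -0.074 for Uqcrq. Of the other genes with a mean of 12 or more, 17.5% were higher in both and 31.3% lower. On centred arrays none of the 9 was lower in both and Uqcrb and Uqcrc2 were higher in both, so the direction depends on the scale. Uqcrfs1, the Rieske iron-sulfur protein, stood at 12.92 and 13.16 on titled nicotine 1 and 2, against 12.94 and 12.92 on titled saccharin 1 and 2, a difference of 0.11 (SE 0.115). The core proteins Uqcrc1 and Uqcrc2 differed by 0.0041 and -0.0069, and cytochrome c1, Cyc1, by -0.0095. Cycs differed by 0.058 (SE 0.246), with 0.13 within number 1 and -0.012 within number 2.

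Complex IV reduces oxygen to water. Its constitutive subunits read close together: Cox4i1 differed by 0.015 (SE 0.113), Cox5a by 0.065 (SE 0.266), Cox5b by -0.050 (SE 0.0570), Cox6c by 0.040 (SE 0.0365) and Ndufa4 by 0.061 (SE 0.251). Cox6b1 gave the narrowest interval of the complex's genes at or above the median level, from -0.095 to 0.054 around -0.021. The ubiquitous isoforms Cox6a1, Cox7a2 and Cox8a differed by 0.047, -0.049 and 0.060, each with an adjusted p of 1 in limma.

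Cox7a1, Cox6a2 and Cox8b are isoforms typical of striated muscle, with differences of both signs. Cox7a1 read 6.90 and 6.59 on titled nicotine 1 and 2, against 6.37 and 6.42 on titled saccharin 1 and 2. Its difference was 0.35 (SE 0.147, 95% interval from -0.20 to 0.90, limma adjusted p = 1), the largest among the 90 genes, and 0.53 within number 1 and 0.17 within number 2. The authors' deposited table gives -0.067 for it. Cox6a2, the muscle partner of Cox6a1, read 8.92 and 8.81 on titled nicotine 1 and 2, against 9.12 and 8.84 on titled saccharin 1 and 2, a difference of -0.11 (SE 0.139), while a dimmer probe set of Cox6a2 at a mean of 4.26 gave 0.62. Cox8b stood below the median level at 2.73 and 2.66 on titled nicotine 1 and 2, against 2.56 and 2.41 on titled saccharin 1 and 2. Of 4 muscle markers (Acta2, Myh11, Ckm and Myl1) only Acta2 was at or above the median level, and Ckm stood at 2.27 to 2.28. The mean over the 4 was 4.37 and 4.28 in titled nicotine, against 4.09 and 4.24 in titled saccharin. Their part in the Cox7a1 difference was not tested.

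The remaining isoforms read below the median level. Cox4i2, the hypoxia-linked isoform of Cox4i1, was at the lowest value, 2.1, on all 4 arrays, Cox7b2 was there on 3 of them, and Cox8c stood at 2.15 throughout. Cox6b2, known from testis, read 4.04 and 3.9 on titled nicotine 1 and 2, against 3.9 on both arrays titled saccharin. Ndufa4l2 read 2.70 on titled nicotine 2 and 2.17 on the other 3 arrays.

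Of complex V, the catalytic F1 subunits differed by -0.026 for Atp5a1 (SE 0.123), 0.0096 for Atp5b (SE 0.316), 0.060 for Atp5c1 and -0.047 for Atp5d (SE 0.0502). Atp5c1, the central stalk subunit, read 14.07 and 14.13 on titled nicotine 1 and 2, against 14.04 on both arrays titled saccharin. Its groups did not overlap on the deposited scale, with 0.028 within number 1 and 0.092 within number 2 (SE of the pooled difference 0.0287, 95% interval from -0.049 to 0.17, limma adjusted p = 1). Atp5h, a subunit of the peripheral stalk, read 15.13 and 15.04 on titled nicotine 1 and 2, against 15.15 and 15.13 on titled saccharin 1 and 2, a difference of -0.059 (SE 0.0433). Atp5g1, Atp5g2 and Atp5g3 encode the same mature c-ring protein from separate genes and differed by 0.020, 0.091 and 0.025. None of the 14 genes of the complex differed by 0.1 or more on the deposited scale. On centred arrays Atp5c1 was at 0.11 and Atp5g2 at 0.14.

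Among the factors, Ndufaf1 had, on the deposited scale, groups that did not overlap and nearly the same difference in both numbers. It read 10.95 and 10.85 on titled nicotine 1 and 2, against 10.81 and 10.72 on titled saccharin 1 and 2. The difference was 0.14 within number 1 and 0.13 within number 2, and 0.13 pooled (SE 0.0644, 95% interval from -0.11 to 0.38, limma adjusted p = 1). On centred arrays Ndufaf1 was at 0.14 within number 1 and 0.23 within number 2. As deposited, Atp5sl differed by -0.062 (SE 0.0477), Atp5s by 0.033 (SE 0.0432) and Cox7a2l by 0.027 (SE 0.195).

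The authors' deposited table, whose direction is not given in the sources used here, had the opposite sign for 78 of the 90 genes. At or above the median level it was 74 of 83 members, against 10154 of all 12234 genes. At a mean of 12 or more it was 64 of 72 members, against 1456 of the 1658 other genes. The opposite sign is thus general to that table and not a result about the members. In the authors' deposited table Sdha was at 0.089, Atp5c1 at -0.054, Atp5h at 0.049 and Ndufaf1 at -0.035, all with an adjusted p of 1.

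The difference between the array numbers was larger than that between titles. Its median size over the 90 genes was 0.14, against 0.046 for the titles. At or above the median level, 21 genes read higher on both arrays numbered 2 than on both numbered 1 and 47 lower (25.3% and 56.6%), against 19.6% and 55% of all genes at that level. No member passed limma with title as a covariate (0 at an adjusted p under 0.05), and over all probe sets 0% were called. An unadjusted limma p under 0.05 was seen in 31 of the 83 members and in 3685 of all 12234 genes at that level. At a mean of 12 or more it was seen in 29 of 72 members, against 553 of the 1658 other genes. Over all 45101 probe sets it was seen in 7599. Centring each array lowers every difference between numbers by 0.157, and the counts become 7 higher and 62 lower of 83, against 10.9% and 73.4% of all genes at that level. Directions near 0 are therefore those of the deposited scale. On centred arrays Sdhc and Ndufa6 passed, where 19.6% of all probe sets did, and with 1 array left out (and no title term) 1 to 11 members passed, where 2.19% to 7.04% of all probe sets did.

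**Figure D3:**
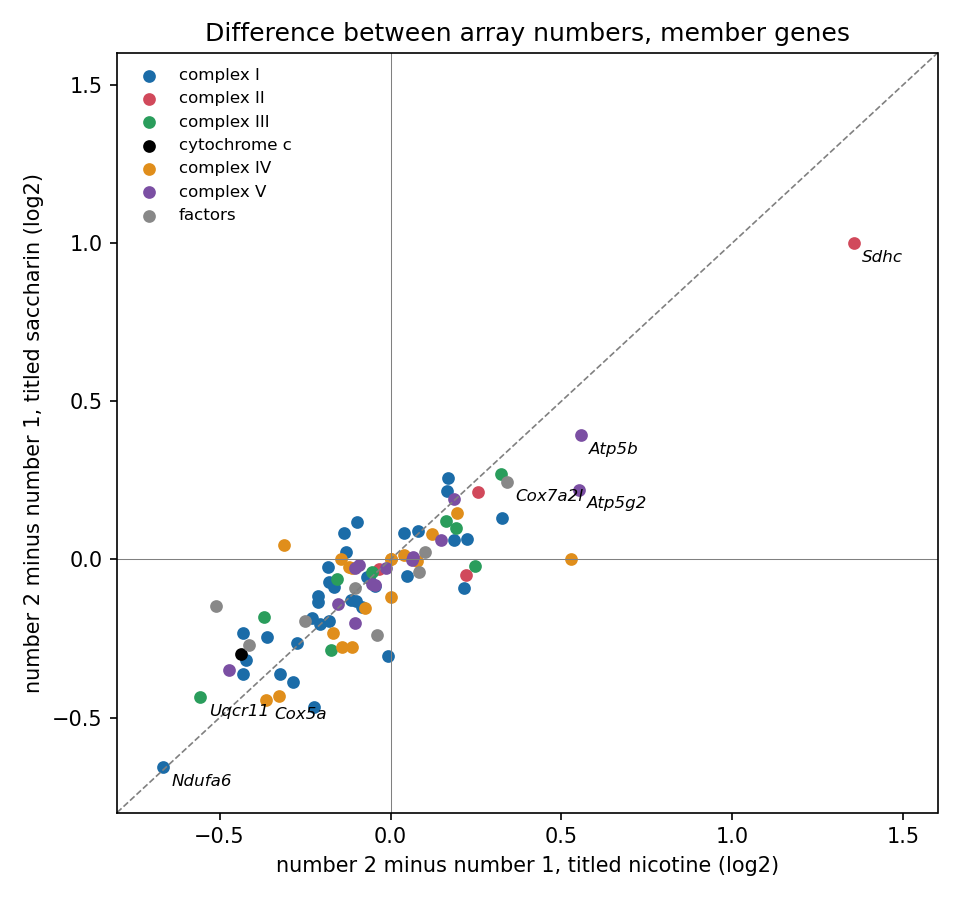
Difference between array number 2 and array number 1 (log2) for the 90 member genes, in titled nicotine (horizontal axis) and titled saccharin (vertical axis), coloured by complex, with the dashed line marking equal differences. Sdhc lies far to the upper right and Ndufa6 at the lower left, and most complex I genes lie below 0 on both axes.

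Sdhc had the largest such difference, 1.18 (SE 0.154, limma adjusted p = 0.290). It read 12.85 and 12.49 on the arrays numbered 2 (titled nicotine, titled saccharin), against 11.50 and 11.49 on those numbered 1, and its other probe set gave 1.33. The other complex II genes did not move with it to that degree, at 0.23 for Sdhb, 0.085 for Sdhd and -0.032 for Sdha. For Sdha this depends on the probe set, since its second bright one, at a mean of 12.65, gave 0.55. At the opposite end, Ndufa6, a complex I accessory subunit, read 12.22 and 12.19 on the arrays numbered 2, against 12.88 and 12.85 on those numbered 1, a difference of -0.66 (SE 0.00423, limma adjusted p = 0.0964). In both genes the arrays of a number lay together whatever their title.

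Within complexes the subunits split, in groups formed after the values were seen and so given without a test. Of 29 accessory complex I genes, 21 read lower on both arrays numbered 2 and 3 higher (median -0.13). Of the 7 core genes 2 read lower and 4 higher. On the same deposited scale, 55% of the 12234 genes at or above the median level read lower and 19.6% higher. Ndufc1 was at -0.40 (SE 0.0299) and Ndufs8 at 0.21 (SE 0.0392). In complex V the 3 c-ring genes and the F1 genes Atp5a1 and Atp5b read higher, with Atp5b at 0.48 (SE 0.0706) and Atp5g2 at 0.39 (SE 0.144). The F1 genes were divided, since Atp5d and Atp5e read lower, as did 5 of the 6 remaining stalk and membrane genes. On centred arrays the c-ring genes no longer stood together. Of the 5 genes named as higher, only Atp5b and Atp5g2 still were, Atp5g3 read lower (-0.12), and Atp5a1 and Atp5g1 overlapped (0.031 and -0.052). Of the accessory complex I genes 27 then read lower and 0 higher, and of the core genes 3 lower and 1 higher, against 73.4% and 10.9% of the 12234 genes. As deposited, the small F1 subunit Atp5e was at -0.41 (SE 0.0527). In complex III, Cyc1 was at 0.30 (SE 0.0236) and Uqcr11 at -0.50 (SE 0.0520). In complex IV, Cox5a was at -0.40 (SE 0.0344) and Ndufa4 at -0.38 (SE 0.0450), against 0.17 (SE 0.0199) for Cox4i1. Cox7a2l was at 0.29 and Cycs at -0.37. None of these passed limma. Some of these values depend on the probe set. So do the directions of core complex I genes. For Ndufs7, a further probe set at a mean of 12.43 gave 0.17, against -0.37 for its brightest. For Ndufv1, those at 13.28 and 12.33 gave -0.058 and 0.13, against -0.12. For Ndufv2, those at 13.43 and 13.23 gave -0.20 and -0.14, against 0.062. Those of Ndufs8 gave 0.048 to 0.13, with the sign of its brightest. For Cycs, further probe sets at means of 14.05, 14.11 and 6.99 gave 0.082, -0.36 and -0.72. For Cox5a, further probe sets at means of 14.49 and 14.36 gave -0.050 and -0.18, smaller in size than its brightest.

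Some other measures differed between the numbers. The signal of the Actb control at the 3′ end minus that at the 5′ end, which grows as transcripts are degraded or copied incompletely, was 1.25 and 1.73 on the arrays numbered 2, against 2.39 and 2.38 on those numbered 1. The Gapdh control differed less, at -0.14 and 0.0070 on the arrays numbered 2, against 0.092 and 0.13 on those numbered 1. The mean of the 7 neuronal markers was 13.83 and 13.74 in number 2, against 13.63 and 13.66 in number 1, with Slc17a7 at 2.46 and Rbfox3 at -0.76. The median difference of the 7 was -0.023, with 3 higher and 3 lower on both arrays numbered 2, so the higher mean rests on Slc17a7. The mean of 5 astrocyte markers was 10.38 and 10.33 in number 2, against 9.72 and 9.75 in number 1, with Aldh1l1 near the lowest value. That higher mean rests on Gfap, at 3.21, since the median difference of the 5 was -0.032, with 2 higher and 1 lower. The part of these measures in the differences of the members was not tested.

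The sequences before the transcription starts are shown for the members at both ends of the difference between numbers that RefSeq's table covers. They are GRCm38.p6, 300 bases each, from 250 before to 50 after the start, read 5′ to 3′ on the gene's strand. Capitals mark the palindrome known for NRF1 (its letters are the capitals in Atp5g2) and CCGGAAG, the letters known for GABP, both regulators of respiratory chain genes, searched on both strands. Ndufa6 is at chr15:82354242-82354541 (minus strand), Uqcr11 at chr10:80406772-80407071 (minus strand), Atp5b at chr10:128083057-128083356 (plus strand) and Atp5g2 at chr15:102670998-102671297 (minus strand).
Ndufa6: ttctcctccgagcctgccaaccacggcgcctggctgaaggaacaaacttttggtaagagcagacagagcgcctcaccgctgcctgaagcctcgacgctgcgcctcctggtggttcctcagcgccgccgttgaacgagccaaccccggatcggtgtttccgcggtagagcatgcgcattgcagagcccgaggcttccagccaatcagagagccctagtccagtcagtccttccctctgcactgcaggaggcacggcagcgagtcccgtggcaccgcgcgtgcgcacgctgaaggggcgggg
Uqcr11: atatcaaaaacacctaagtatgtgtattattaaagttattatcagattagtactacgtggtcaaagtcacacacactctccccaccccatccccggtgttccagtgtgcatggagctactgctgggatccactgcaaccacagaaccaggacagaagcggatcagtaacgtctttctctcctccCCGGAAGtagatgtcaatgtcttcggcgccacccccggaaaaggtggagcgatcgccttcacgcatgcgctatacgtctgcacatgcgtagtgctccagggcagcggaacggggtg
Atp5b: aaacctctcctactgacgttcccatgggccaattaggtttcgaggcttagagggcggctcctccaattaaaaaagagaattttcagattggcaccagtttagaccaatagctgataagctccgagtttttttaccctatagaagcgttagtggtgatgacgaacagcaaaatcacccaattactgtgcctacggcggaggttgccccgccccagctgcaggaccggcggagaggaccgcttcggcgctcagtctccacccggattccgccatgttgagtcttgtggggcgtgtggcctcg
Atp5g2: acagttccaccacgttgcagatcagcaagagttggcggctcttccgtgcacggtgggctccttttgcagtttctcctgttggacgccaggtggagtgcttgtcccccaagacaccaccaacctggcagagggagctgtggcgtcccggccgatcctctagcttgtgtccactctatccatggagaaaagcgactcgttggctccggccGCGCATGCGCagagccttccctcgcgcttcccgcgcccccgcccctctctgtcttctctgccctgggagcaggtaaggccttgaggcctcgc

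Uqcr11, on the lower side, holds the GABP letters from 66 bases before the start, and Atp5g2, on the higher side, the NRF1 letters from 42 bases before it. The Ndufa6 and Atp5b windows hold neither run of letters. Of the 73 members in the RefSeq table, 6 held the NRF1 letters (8.22%, against 1.07% of 27025 genes) and 16 the GABP letters (21.9%, against 9.93%). The NRF1 group was Atp5g2, Atp5k, Cox6a1, Ndufa11, Ndufaf4 and Uqcrc1. The median difference between numbers was -0.11 in these 6 and -0.070 in the other 67, and the median difference between titles was 0.018 and 0.0056. For the GABP letters the medians between numbers were -0.076 with and -0.070 without. The matches are descriptions of letters, not of binding.

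Genes with several probe sets showed how far a value depends on the probe set. In 55 genes there was more than 1, and 74 further probe sets reaching the median level could be set beside the brightest. Of these, 26 had the opposite sign between titles and 21 between numbers. The 12 dimmer than 9 had a median difference between numbers of -0.78, with 11 of 12 below 0, against -0.069 for the 62 at 9 or more. Ndufab1 at 7.81 and 7.76 in number 1 had 4.69 and 5.46 in number 2 in its dim probe set (a difference of -2.71), while its brightest differed by -0.35. The dim probe sets of Cox7c gave -1.64 and -1.68, that of Cox6a2 -1.96 and that of Atp5c1 -1.60, where the brightest of these genes gave 0.10, -0.20 and 0.030. Of the brightest probe sets, 7 carry the suffix _x and 14 the suffix _s, which mark probes shared with other transcripts, so near-identical copies may add to those values.

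**Figure D4:**
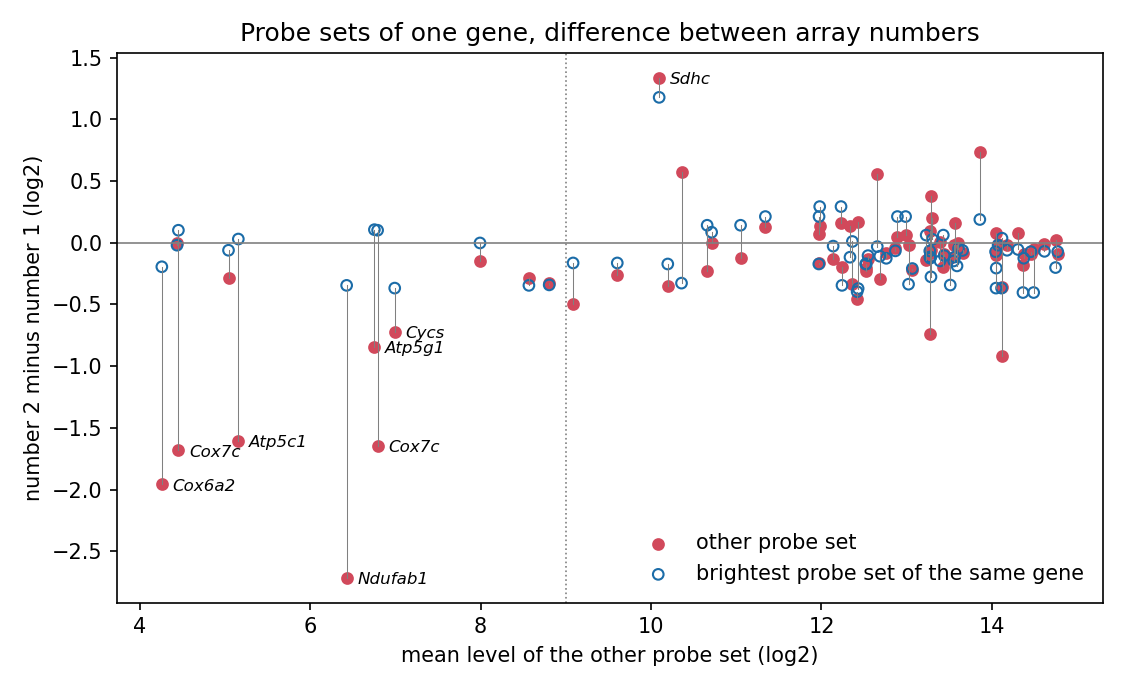
Difference between array number 2 and array number 1 (log2, vertical axis) for 74 further probe sets of member genes (filled) and the brightest probe set of the same gene (open), joined by a line, against the mean level of the further probe set (log2, horizontal axis). Left of the dotted line at a level of 9, 11 of 12 further probe sets lie below 0, and Ndufab1 reaches -2.71.

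Some probe sets read the same to the last deposited digit on all 4 arrays. Among the members these were 16 of 186, 8 of them at the lowest value and 3 at or above the median level, one each of Uqcrh at 13.61, Sdhd at 10.71 and Atp5j2 at 4.44. Of all probe sets reaching the median level, 231 (1.02%) did so. Such a value does not separate the arrays at all, and the brightest probe set was used for each of these genes.

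Other mitochondrial genes were set beside the members. Of 27 measured assembly factors outside the prefixes, 18 regulators of mitochondrial biogenesis, 19 genes of pyruvate dehydrogenase and the tricarboxylic acid cycle and 24 of mitochondrial dynamics and import, none passed limma (0, 0, 0 and 1 at an unadjusted p under 0.05). Their median differences were 0, -0.066, -0.016 and -0.012. The 1 gene was Dnm1l, the fission GTPase, at 13.25 and 13.19 on titled nicotine 1 and 2, against 13.38 on both arrays titled saccharin (difference -0.15, adjusted p = 1). Timm23, of the import channel, differed by -0.029, Fh1, the fumarase, by -0.075, Dlst by -0.052, the F1 assembly factor Atpaf1 by -0.19 and Sco2 by 0.094. The coactivator Pprc1 differed by -0.074 and Nrf1, at a mean near the median level, by 0.40 (adjusted p = 1 for each). The subunits encoded in mitochondrial DNA were not analysed here.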

How the data were processed

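The series matrix holds log2 expression values per probe set as deposited by the authors. The scale was read from the values, and how arrays were corrected, normalized and summarised is not known from the sources. The authors' deposited table gives log2 fold changes and a p-value, raw and adjusted, for each probe set. Per the file headers, it also holds a score from the authors' model (t and B). The submitters' processing notes name limma. Gene symbols came from that table, which leaves 6778 probe sets without a usable symbol. Of the 90 member symbols, 86 are current in the GRCm38.p6 RefSeq annotation and 4 were updated there.

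limma 3.58.1 (R 4.3.3) was fitted to all 45101 probe sets, with Benjamini-Hochberg adjustment over all of them and a threshold of 0.05, after a test on simulated data. The fit between titles had 2.32 total degrees of freedom after moderation. Differences between numbers were fitted with title as a covariate. That model, also used with the number as a block, had 1.33 total degrees of freedom after moderation. The smallest p of an exact permutation test over these arrays is 0.333, so none was used. The members and gene lists were chosen with earlier results of these data known. Named genes were, for each complex, the 3 with the smallest p, fixed core subunits and isoforms, the largest differences between non-overlapping titles and between numbers, and genes whose probe sets disagree by over 0.5. Some items are not reported here. Others named, the levels of 12 and 9 used to split genes and probe sets, and the split by subunit role were chosen after values were seen. Alternatives were quantile normalization, centring, a filter on dim probe sets, trend and robust variance, the number as a block, mean probe sets, a minimum difference of 0.5, the authors' adjusted p and leaving out each array.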

Additional observations from a re-analysis of the deposited data

How the results depend on the processing

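The count of members passing limma between titles was 0 under all alternatives run except without titled nicotine 1, where Ndufa4l2 alone passed (0.53, adjusted p = 0.0448) and 0.84% of all probe sets did. Leaving out arrays gave 0 to 1 members. That gene rests on titled nicotine 2, the 1 array on which it read above 2.17. With the array number as a replicate block the count was 0, with 8 members at an unadjusted p under 0.05 (4.92% of all probe sets were), and the lowest adjusted p was 0.475, for Sdha. Numbers are not explained in the labels, so the block gives no pairing known from the design. Centred arrays gave median differences of 0.091 for complex IV and 0.067 for complex V. With 1 array left out the median over all members lay between -0.038 and 0.023, that of complex I between -0.058 and 0.058, of complex II between -0.11 and 0.13, of complex III between -0.045 and 0.010, of complex IV between -0.0066 and 0.034, of complex V between -0.011 and 0.020 and of the factors between -0.040 and 0.099. Between numbers the count of members was 0 with quantile normalization, with the filter, with trend and robust variance and with mean probe sets, 2 with centred arrays (Sdhc and Ndufa6, where 19.6% of all probe sets passed) and 2 with the number as the only term (Ndufa1 and Ndufa6, where 2.44% passed). With 1 array left out and the number as the only term 1 to 11 members passed: 1 when either array numbered 1 was dropped, 8 when titled nicotine 2 was dropped and 11 when titled saccharin 2 was. Of all probe sets, 2.19% passed without titled nicotine 1, 2.43% without titled saccharin 1, 5.81% without titled nicotine 2 and 7.04% without titled saccharin 2. In these fits the lone array is assumed to vary like the others. Of the 44 named genes that reach the median level, the sign between titles turned in 14 with centred arrays, 6 with mean probe sets, 1 with quantile normalization and 11 to 19 with 1 array left out (19 without titled nicotine 2). With 4 arrays, precision is low throughout.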
